A study of Mus musculus with 12 samples.

Results

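The comparison described here set the prostate transcriptome of F1 male mice exposed in the womb to chlordecone against that of control F1 males. Chlordecone, also known as kepone, is a persistent chlorinated insecticide that can act like an oestrogen. It was given to the pregnant F0 females at 100 µg/kg/day over E6.5 to E15.5 (days of embryonic development), and the prostate of their sons was the source of polyadenylated RNA, sequenced as stranded libraries. Members were chosen by the labels for generation and treatment, which gave 5 libraries of the 12 samples in the series: F1 control 1 and 2, and F1 chlordecone 1, 2 and 3. A sixth F1 sample in the labels, control 3, was not analysed here. What the control females were given, the strain, the age of the males, the prostate lobes taken, and whether samples were single animals or pools or shared a litter are not stated in the labels. Every p-value below is thus about the spread of 5 samples alone, which may be technical in part, and says nothing of the spread between dosed females.

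The mouse prostate is a set of paired glandular lobes around the urethra. Its luminal cells secrete proteins of the seminal fluid under the control of androgens, over a layer of basal cells and a sheath of smooth muscle and fibroblasts. The lobes are joined by their ducts to the urethra and lie against the seminal vesicles, the vas deferens and the bladder, so markers of those organs were followed beside those of the prostate. The gland forms before birth as epithelial buds that grow out of the urogenital sinus under androgen signals from the mesenchyme, with posterior Hox genes setting the position along the tract. Oestrogens and androgens act through nuclear receptors that bind DNA, and oestrogen-like chemicals can bind the oestrogen receptor.

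Total counts were 17228539 and 18740109 in control 1 and 2, and 25384743, 17858215 and 28061760 in chlordecone 1, 2 and 3. The 10 most abundant genes took 34.6% to 35.8% of the counts in the controls and chlordecone 1, and 52.8% and 53% in chlordecone 2 and 3. By share of counts, the androgen-driven secretory gene Pbsn (probasin) led in control 1 and chlordecone 1, at 9.57% and 7.93%, the seminal vesicle gene Svs4 led in control 2 and chlordecone 2, at 9.23% and 29.8%, and the seminal vesicle gene Svs2 led in chlordecone 3, with 4336954 counts. The controls differed by a chi-square of 16.6 per gene, far above sampling noise of about 1 but far below the 266 to 599 of every other pair. The labels list them as separate samples and they were counted as such. Chlordecone 2 stood apart from chlordecone 1 and 3 in many genes, and each result below is therefore given library by library. Levels are in CPM, counts scaled to a library total of the same fixed size after TMM normalisation, and a log2 ratio compares 1 chlordecone library with the mean of both controls. All ratios share these 2 controls.

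Of 17804 genes tested, 5 had a Benjamini-Hochberg adjusted p under 0.05 by the quasi-likelihood F test of edgeR, 0.0281% of the genes, with 2 higher (0.0112%) and 3 lower (0.0169%). Fam199x, C1rl and Scn3a fell in the chlordecone libraries, while Cyp21a1 and Kcna2 rose. Each stood in a different gene list, or, for Fam199x, in none. Fam199x fell furthest, about 40.0-fold on the fitted scale. All 5 had groups that did not overlap, as 31.3% of all genes tested did, with the 3 chlordecone libraries within 3-fold of each other. Both traits favour a small p, by which the 5 genes were picked.

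Fam199x (ENSMUSG00000042595) is a protein-coding gene of the X chromosome, at chrX:137049594-137082503 on the plus strand of GRCm38, with no annotated gene over it. Its level was 242 and 247 CPM in the controls, against 3.80, 8.02 and 6.54 CPM in chlordecone 1, 2 and 3. Both controls were high and nearly equal, and every chlordecone library was more than an order of magnitude below them. The group levels were 245 ± 3.81 CPM (SD, n = 2) and 6.12 ± 2.14 CPM (SD, n = 3), a log2 fold change of -5.32 (SE 0.37, adjusted p = 0.0102, edgeR). C1rl (ENSMUSG00000038527) encodes a protease resembling complement C1r. It lies at chr6:124493113-124510643 on the plus strand, and the numbered gene model Gm44096 lies over it on the other strand, which makes its reads uncertain. C1rl had 85.8 and 75.6 CPM in the controls, against 5.82, 5.18 and 2.26 CPM in chlordecone 1, 2 and 3, lowest in chlordecone 3. The log2 fold change was -4.19 (SE 0.41, adjusted p = 0.0284, edgeR).

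The promoters of these 2 genes are printed because both genes fell and their start sites are the same in RefSeq and in the annotation used for the coordinates. The sequences are the 250 bases before the start in RefSeq on GRCm38.p6, plus strand, at chrX:137049344-137049593 for Fam199x and chr6:124492863-124493112 for C1rl. Capitals mark the letters AGGTCA, the half-site bound by the oestrogen receptor and other nuclear receptors.
Fam199x: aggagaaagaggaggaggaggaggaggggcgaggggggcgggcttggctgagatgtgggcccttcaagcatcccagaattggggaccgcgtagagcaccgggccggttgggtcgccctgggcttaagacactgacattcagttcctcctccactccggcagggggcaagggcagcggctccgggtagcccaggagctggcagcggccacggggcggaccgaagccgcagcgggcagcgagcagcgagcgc
C1rl: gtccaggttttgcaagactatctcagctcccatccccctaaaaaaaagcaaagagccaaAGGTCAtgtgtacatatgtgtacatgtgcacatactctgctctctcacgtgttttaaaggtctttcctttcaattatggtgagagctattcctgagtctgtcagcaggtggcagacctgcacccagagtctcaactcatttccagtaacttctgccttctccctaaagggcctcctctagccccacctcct
The Fam199x window had 69.2% G and C and 19 CpG dinucleotides, where the median of 32851 mouse promoter windows of this length was 52.4% and 6. The C1rl window had 47.6% and 1. AGGTCA on either strand was found once in the C1rl window and not in that of Fam199x, and 14.0% of all windows hold it. Neither window held AGAACA, the half-site bound by the glucocorticoid receptor and its relatives (16.1% of all windows, either strand), the AP-1 site TGACTCA (4.46%, either strand) or the TATA box letters TATAAA (7.59%, on the strand of the gene). A match is a string of letters and not a measured site.

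Scn3a encodes a pore-forming subunit of voltage-gated sodium channels, known mainly from the developing nervous system. It lies at chr2:65457118-65567627 on the minus strand, with the numbered gene model Gm13595 over it on the other strand, which leaves its reads uncertain. Its values were 63.2 and 53.0 CPM in the controls and 7.68, 10.6 and 7.87 CPM in chlordecone 1, 2 and 3. The exposed libraries lay close together and far below both controls. The log2 fold change of Scn3a was -2.74 (SE 0.27, adjusted p = 0.0284, edgeR). Kcna2, a subunit of voltage-gated potassium channels that repolarise nerve and muscle cells, went the other way. It lies at chr3:107101146-107115005 on the plus strand. Kcna2 had 2.83 and 2.58 CPM in the controls, against 25.5, 46.1 and 37.5 CPM in chlordecone 1, 2 and 3, highest in chlordecone 2. Its log2 fold change was 3.75 (SE 0.37, adjusted p = 0.0284, edgeR).

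Cyp21a1 encodes the steroid 21-hydroxylase, the enzyme of the adrenal cortex that makes precursors of corticosterone and aldosterone. It lies at chr17:34801348-34804561 on the minus strand, with Tnxa over it on the other strand and a near-identical pseudogene copy nearby, so its reads are uncertain. The raw counts were 0 and 0 in the controls and 886, 366 and 465 in chlordecone 1, 2 and 3, or 35.1, 20.0 and 21.4 CPM. Its mean was at least 162-fold higher than a floor of 3 counts per control library (0.157 CPM), and the lowest exposed library at least 127-fold higher (adjusted p = 0.0163, edgeR). Floors and counts cover counting error only. Star, the carrier that starts steroid synthesis, had 0.838 and 0.656 CPM and then 1.31, 2.29 and 4.37 CPM, and Srd5a1, an enzyme that makes dihydrotestosterone, had 1.57 and 2.48 CPM and 5.74, 5.07 and 5.02 CPM. Both had every exposed library above both controls, at adjusted p of 0.478 and 0.39 (edgeR). Of the 24 steroid-making and converting genes tested, 4 lay above both controls in all 3 chlordecone libraries and 2 below, beside 16.2% and 15.1% of all genes tested. The fourth gene above was Akr1b7, described with the vas deferens genes.

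**Figure D1:**
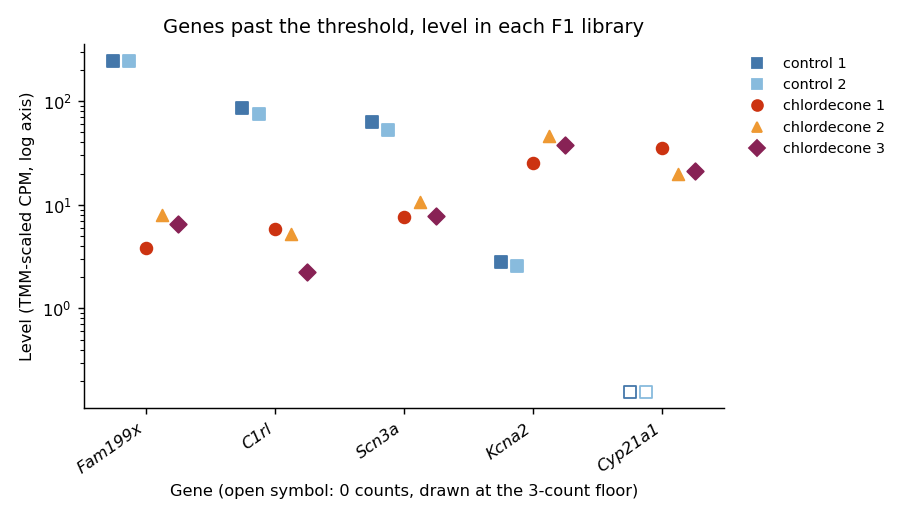
Level of the 5 genes past the threshold in each of the 5 F1 libraries, in TMM-scaled CPM on a log axis. Squares are the 2 controls and the other symbols the 3 chlordecone libraries. Open squares mark 0 counts, drawn at the 3-count floor of 0.157 CPM. In each gene the 3 chlordecone libraries lie together on 1 side of both controls.

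The calls rested on the control pair and on chlordecone 3. In edgeR fits that left out 1 library, 0 genes passed without control 1, without control 2 or without chlordecone 3, where 1066, 1059 and 1240 genes had an unadjusted p under 0.05, while 7 passed without chlordecone 1 and 2604 without chlordecone 2. The log2 fold changes of the 5 genes hardly moved: over these fits Fam199x lay between -5.57 and -5.07, and Kcna2 between 3.53 and 3.95. DESeq2's Wald test called 700 genes, 3.89% of those with an adjusted p, of which 537 were higher and 163 lower, the 5 genes among them. Upper-quartile scaling gave 4 higher and 10 lower. In F3 males, descended from the dosed F0 females or from controls, 3 control and 3 chlordecone libraries were counted in a separate table, in which 0.0596% of 16766 genes passed. Fam199x was at 13.2 ± 4.25 CPM in F3 controls and 17.3 ± 9.75 CPM in F3 chlordecone libraries (SD, n = 3 each, adjusted p = 0.706, edgeR), levels nearer to the F1 chlordecone libraries than to the F1 controls, across tables that were made separately. C1rl was at 83.4 ± 33.4 and 110 ± 17.3 CPM (adjusted p = 0.588, edgeR), Scn3a at 9.01 ± 5.58 and 14.7 ± 5.67 CPM (adjusted p = 0.569, edgeR) and Kcna2 at 0.196 ± 0.0515 and 0.227 ± 0.0180 CPM (adjusted p = 0.843, edgeR). Cyp21a1 was not tested in F3. The difference between generations was not tested for these genes.

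Genes beside the called ones were examined next. Within 500000 bases on each side, 3 of 12 tested neighbours of Fam199x had an unadjusted p under 0.05, as did 7 of 55 for Cyp21a1, 4 of 32 for C1rl, 1 of 5 for Scn3a and 0 of 12 for Kcna2. Over all genes tested these shares were 7.93% higher and 3.6% lower (1412 and 641 genes, edgeR, unadjusted). None of the neighbours passed the adjusted threshold. Next to C1rl lie its relatives of the first complement component. C1ra had a log2 fold change of -0.59 (adjusted p = 0.429, edgeR) and C1s1 one of 1.42 (adjusted p = 0.221, edgeR), so these adjoining protease genes did not take 1 direction.

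The next 12 genes by p in each direction, among genes whose groups did not overlap and whose mean was 1 CPM or more, had adjusted p between 0.0629 and 0.138 (edgeR) and so miss the threshold. The higher ones included secreted and metabolic genes. Pfkfb3, an enzyme whose product speeds up glycolysis, had 1.94 and 4.64 CPM in the controls, against 158, 108 and 380 CPM in chlordecone 1, 2 and 3. Plau, the urokinase that activates plasminogen, had 5.76 and 3.75 CPM and then 366, 109 and 803 CPM. Defb42, a beta-defensin antimicrobial peptide, had 0.314 and 0.844 CPM and 115, 52.7 and 399 CPM. All 3 were highest in chlordecone 3 and lowest of the exposed libraries in chlordecone 2. Trf, the iron carrier transferrin, had 2.25 and 3.33 CPM and 19.8, 26.2 and 38.3 CPM, and Oit1 had 3.20 and 4.73 CPM and 48.2, 22.1 and 41.6 CPM. Pfkfb3, Defb42 and Oit1 have another gene over them on the opposite strand, and Trf has one on its own strand, so their reads are uncertain.

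A pair of genes of proton-secreting cells stood among them. Foxi1, the transcription factor that specifies such cells in kidney, inner ear and epididymis, had 0.314 and 0.0469 CPM in the controls, against 9.19, 7.47 and 18.4 CPM in the exposed libraries. Atp6v1g3, a subunit of the proton pump, was at 0 and 0.281 CPM and 15.2, 16.2 and 36.1 CPM. Car2, the carbonic anhydrase that supplies protons, was among the lower genes instead, with 843 and 772 CPM in the controls, against 241, 272 and 274 CPM in chlordecone 1, 2 and 3. The list of 17 clear-cell genes tested had 6 members above and 3 below both controls in all 3 exposed libraries. Over all genes, 16.2% lay above (2877 genes) and 15.1% below (2693), or 31.3% in either direction, and this share is the background for every such count. Under upper-quartile scaling 2284 lay above and 3460 below.

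Neuroendocrine and neuronal genes were also among the higher ones. Scg5, a chaperone of prohormone convertase in secretory granules, had 0.0524 and 0 CPM and then 4.43, 9.60 and 15.2 CPM. Bex2, an X-linked gene expressed in neural and endocrine cells, had 0.105 and 0.0937 CPM and 5.11, 9.87 and 8.15 CPM. Cyp4a12a, the androgen-dependent fatty acid hydroxylase best known from male kidney, had 0 counts in both controls and 12.4, 9 and 37.3 CPM in chlordecone 1, 2 and 3, its mean at least 124-fold higher than the 3-count floor. It belongs to a family of close copies, so its reads may be shared. Ifi27l2a, an interferon-induced gene, had 4.24 and 4.73 CPM and 17.3, 30.5 and 23.9 CPM. Hoxa11os, the antisense RNA over Hoxa11, had 7.02 and 7.54 CPM and 37.3, 41.3 and 30.9 CPM, and its reads cannot be told from those of Hoxa11 without the strand setting of the counting.

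The lower genes were more even between exposed libraries and included abundant epithelial transcripts. Fgl1, a secreted fibrinogen-like protein, had 596 and 611 CPM in the controls, against 137, 97.7 and 107 CPM in chlordecone 1, 2 and 3 (log2 fold change -2.41, SE 0.29). Mme, the membrane peptidase neprilysin of prostate epithelium, had 334 and 297 CPM and 85.8, 68.7 and 73.9 CPM (log2 fold change -2.05, SE 0.26). Olfm4, a secreted glycoprotein of glandular epithelium, had 387 and 383 CPM and 64.5, 36.2 and 75.4 CPM. In all 3 genes the exposed libraries lay far below both controls, and in Fgl1 and Mme they lay close together. Tob1, an antiproliferative regulator of messenger RNA decay, had 458 and 438 CPM and 124, 158 and 151 CPM, and Wdr11, a trafficking protein tied to hedgehog signalling and to pubertal development, had 154 and 140 CPM and 41.5, 44.8 and 45.3 CPM. Camk1d, a calcium-dependent kinase, had 132 and 111 CPM and 35.3, 29.7 and 33.0 CPM, and Bank1, a signalling scaffold of B cells, had 25.5 and 18.0 CPM and 3.05, 4.74 and 3.64 CPM. Gdpd3, a lysophospholipase, had 57.0 and 54.8 CPM and 5.94, 1.96 and 1.52 CPM. Trpc6, a calcium-permeable cation channel, had 12.6 and 10.3 CPM and 0.673, 1.20 and 1.66 CPM. H2-T10, a non-classical class I gene, had 11.9 and 16.4 CPM and 1.07, 1.69 and 1.29 CPM, and Xlr3a, an X-linked lymphocyte-regulated gene, had 16.9 and 20.1 CPM and 2.1, 3.11 and 2.85 CPM. Both are members of families with close copies, and their reads may be shared. Numbered gene models lie over Olfm4, Camk1d, Bank1, Gdpd3 and Trpc6, so the reads of these genes are uncertain.

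**Figure D2:**
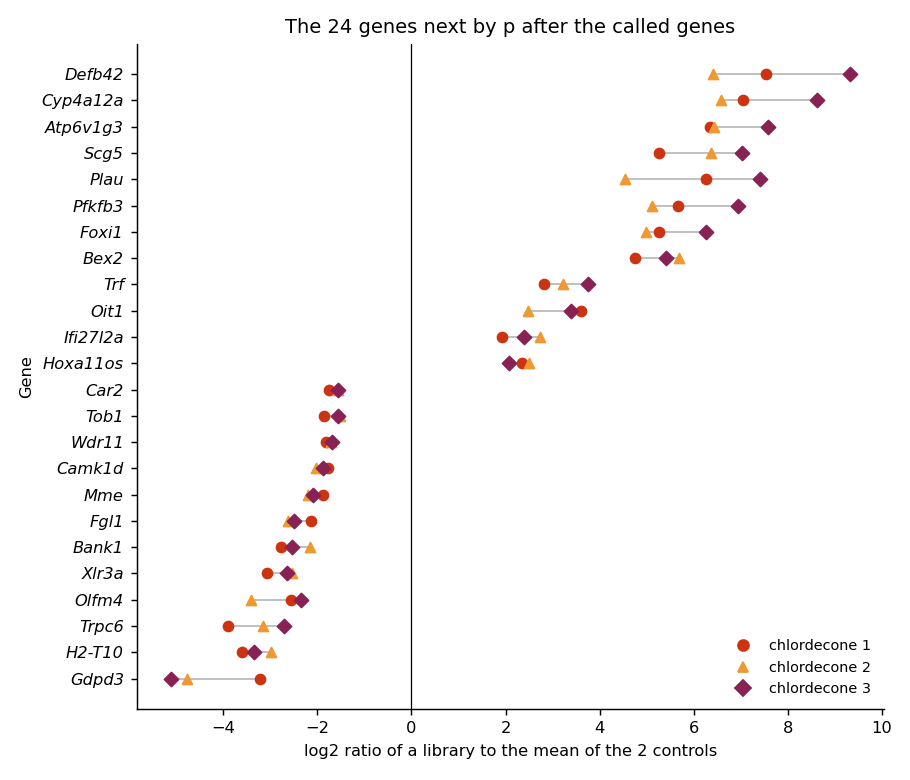
Log2 ratio of each chlordecone library to the mean of the 2 controls for the 24 genes that come next by p after the 5 called, 12 higher and 12 lower, with groups that do not overlap, none of them past the threshold. Lines join the lowest and the highest library of a gene. The lower genes, except Gdpd3, Olfm4 and Trpc6, have the 3 libraries within 1 log2 unit of each other, while most of the higher genes span more.

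How evenly differences held was counted over all genes tested. In chlordecone 1, 15.9% of genes were at least 2-fold above the mean of the controls and 21.2% at least 2-fold below it. Chlordecone 2 had 15.9% above and 8.41% below, and chlordecone 3 had 14.0% above and 16.9% below. In all 3 libraries at once, 881 genes were at least 2-fold higher (4.95%) and 435 at least 2-fold lower (2.44%). Chlordecone 1 and 3 without chlordecone 2 shared 926 higher and 1874 lower genes, against 226 and 177 for chlordecone 1 and 2 without 3, and 269 and 114 for chlordecone 2 and 3 without 1. A further 1457 genes were 2-fold higher in chlordecone 2 alone. Most genes past 2-fold were so in 1 or 2 of the exposed libraries and not in all 3.

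**Figure D3:**
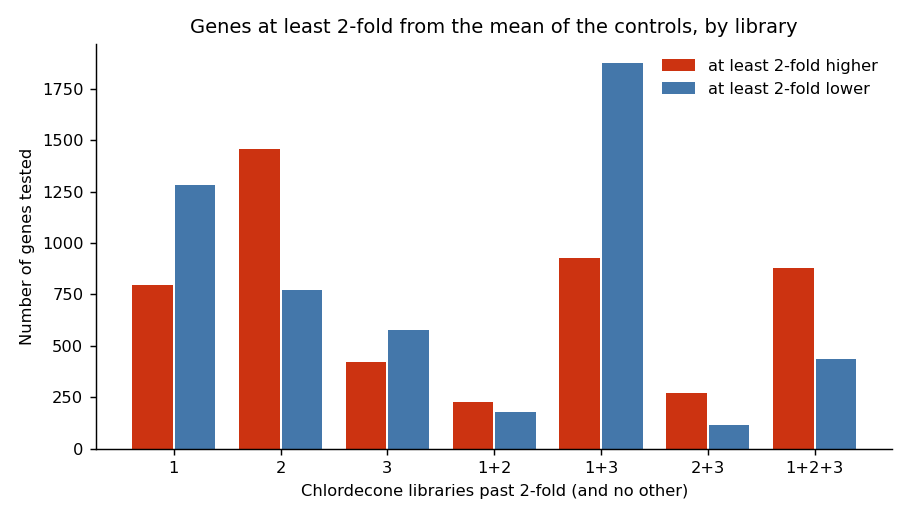
Number of the 17804 genes tested that were at least 2-fold above (red) or below (blue) the mean of the 2 controls, by which chlordecone libraries passed 2-fold. The tallest bar is the 1874 genes lower in chlordecone 1 and 3 and not in 2, and 881 higher and 435 lower genes passed in all 3.

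Pbsn and Tgm4, defining secretory genes of the prostate, were abundant in every library. Prostate secretory products had a median log2 fold change of -0.77 over 13 genes tested, beside 0.02 over all genes, and medians of -0.61, -1.0 and -1.17 in chlordecone 1, 2 and 3. Of these genes, 7 lay below both controls in all 3 libraries and 1 above, and 0 passed the adjusted threshold (edgeR, with 7 lower and 1 higher at an unadjusted p under 0.05). 9530053A07Rik, an abundant mucin-like transcript of the gland, had 60632 and 67188 CPM in the controls, against 28019, 22184 and 28393 CPM in chlordecone 1, 2 and 3. Every exposed library was far below both controls. Tgm4, the transglutaminase of the copulatory plug, had 8349 and 8169 CPM and then 5331, 2788 and 4290 CPM. Hoxb13, a homeobox gene of posterior prostate identity, had 168 and 182 CPM and 114, 100 and 93.1 CPM. Pbsn did not follow: it had 86408 and 71480 CPM in the controls and 79703, 37323 and 84709 CPM in chlordecone 1, 2 and 3, low only in chlordecone 2. Fgfbp1, a carrier that frees fibroblast growth factors, was the member above the controls, at 0 and 0.844 CPM and 21.7, 8.56 and 58.7 CPM. Without any 1 library the median of this list stayed between -1.0 and -0.63. Spinkl is counted both in this list and in that of the seminal vesicle. Its log2 ratios were -1.53, 0.91 and -8.83 in chlordecone 1, 2 and 3. Those of Spink1, also in this list, were -0.97, 1.59 and -6.97.

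The luminal list divided. Over 19 genes tested its median was 0.02, with 0.26, -0.61 and 0.23 in chlordecone 1, 2 and 3, and it changed sign under upper-quartile scaling (-0.18). The regulator Foxa1, at 134 and 108 CPM and then 67.5, 78.6 and 71.9 CPM, lay below both controls in all 3. The keratin Krt8, at 123 and 154 CPM and 407, 89.3 and 321 CPM, and the claudin Cldn3, at 44.7 and 44.1 CPM and 110, 24.9 and 108 CPM, were above the controls in chlordecone 1 and 3 and below them in chlordecone 2. Psca, a surface antigen of urethra-proximal luminal cells, lay on the other side from Foxa1, at 0.314 and 0.422 CPM and 34.6, 5.34 and 15.7 CPM. It had every exposed library above both controls and did not pass the adjusted threshold (adjusted p = 0.127, edgeR).

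Basal cells, the reserve layer under the luminal cells, gave a median of 0.42 over 12 genes, with 0.45, 0.52 and 0.12 by library. The basal keratins Krt5, at 2.83 and 4.78 CPM and then 14.2, 11.3 and 12.1 CPM, and Krt14, at 1.36 and 0.750 CPM and 4.87, 5.94 and 7.64 CPM, lay above both controls in every exposed library. The laminin chain Lama3, at 51.4 and 43.3 CPM and 20.0, 21.9 and 18.3 CPM, and the integrin Itga6, at 66.2 and 64.0 CPM and 23.6, 29.8 and 39.8 CPM, lay below. Dst, a linker of the cell skeleton to the same matrix, overlapped between groups, at 176 and 158 CPM and 154, 220 and 130 CPM. Neuroendocrine genes had a median of 1.78 over 8, with 1.0, 2.59 and 2.05 by library, from low levels. Scg2, a granule protein, had 0.105 and 0.656 CPM and 2.97, 11.4 and 9.85 CPM, and the vesicle protein Syp had 0.367 and 1.45 CPM and 2.02, 4.53 and 7.96 CPM. Insm1, a transcription factor of that cell type, lay below both controls in all 3 instead, at 3.56 and 4.50 CPM and 0.752, 2.40 and 0.737 CPM. Chga, the granule protein chromogranin A, had 1.31 and 0.890 CPM and 1.70, 4.63 and 2.03 CPM. The summed level of the list was 8.59 and 10.4 CPM in the controls and 14.3, 41.4 and 40.7 CPM in chlordecone 1, 2 and 3.

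The machinery behind secretion gave small medians that differed by library. The secretory pathway list had -0.14 over 49 genes, with 0.02, -0.63 and 0.05 in chlordecone 1, 2 and 3. Hsp90b1, a chaperone of the endoplasmic reticulum, had 7379 and 7471 CPM and 4653, 4679 and 4157 CPM, and the disulphide isomerase Pdia6 had 1833 and 1858 CPM and 928, 645 and 1016 CPM. Hspa5, the chaperone induced by unfolded proteins, lay on the other side, at 1884 and 1860 CPM and 3665, 2094 and 3878 CPM, as did Herpud1, a degradation factor of the same response, at 239 and 238 CPM and 401, 363 and 358 CPM. Polyamine and citrate metabolism, a hallmark of prostate secretion, had a median of 0.53 over 19 genes, with 0.85, -0.32 and 0.52 in chlordecone 1, 2 and 3, and of 0.07 without chlordecone 1. Odc1, the first enzyme of polyamine synthesis, had 14.3 and 18.9 CPM and 38.9, 32.4 and 45.4 CPM, above both controls in all 3, while Sms, spermine synthase, had 72.7 and 78.1 CPM and 34.4, 32.9 and 33.5 CPM, below both in all 3. Zinc transporter and metallothionein genes had a median of -0.06 over 17 genes, with -0.09, -0.21 and -0.09 by library. Of the 17, 4 lay below both controls in all 3 libraries and 0 above, beside 15.1% and 16.2% of all genes. Mt3, a metallothionein, was among those below, at 390 and 423 CPM and 195, 154 and 177 CPM. It was the 1 member with an unadjusted p under 0.05 (edgeR).

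Seminal vesicle genes had the widest spread of list medians between libraries. Their medians were -0.89, 1.19 and -4.53 in chlordecone 1, 2 and 3, over 11 genes tested, and -0.07 over the group. The summed level was 144097 and 144624 CPM in the controls and 198236, 448807 and 537358 CPM in the exposed libraries, and none of the list's tested genes was at 0 counts in any library. Members split into sets. Svs2, with 3930 and 3196 CPM in the controls, against 34721, 23806 and 199640 CPM in chlordecone 1, 2 and 3, and Svs5, at 19686 and 19708 CPM and 51768, 51188 and 150120 CPM, which encode clotting proteins of the copulatory plug, lay above both controls in every exposed library, as did Pate4, at 10954 and 10927 CPM and 40762, 52733 and 138570 CPM. The 1 member below both controls in all 3 was 9530002B09Rik, at 18376 and 17264 CPM and 8805, 5781 and 8506 CPM. Svs4, an abundant secretory protein of the gland, had 77826 and 81025 CPM and 57417, 290000 and 40393 CPM, high in chlordecone 2 alone. Svs1, a diamine oxidase-like protein, had 275 and 239 CPM and 130, 517 and 0.783 CPM, and Svs3a had 638 and 602 CPM and 361, 1528 and 3.59 CPM. The secretory gene Sva had 3197 and 2774 CPM and 1177, 5689 and 4.10 CPM, and the protease inhibitor-like Spinkl had 6788 and 5880 CPM and 2181, 11897 and 13.8 CPM. Svs1, Svs3a, Sva and Spinkl were all highest in chlordecone 2 and lowest in chlordecone 3, the library with the highest Svs2. These genes have similar copies, and another gene lies over Svs1, so single values may hold shared reads.

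Some vas deferens and epididymis genes stood out in chlordecone 1 and 3, while the list as a whole had medians of 2.06, 1.63 and 2.18 in chlordecone 1, 2 and 3. Crisp1, an epididymal sperm-coating protein, had 8.70 and 10.1 CPM in the controls and 15224, 68.5 and 5188 CPM in chlordecone 1, 2 and 3. Akr1b7, a reductase abundant in the vas deferens, had 15.3 and 14.8 CPM and 29064, 33.2 and 8740 CPM; a numbered gene model lies over it, so its reads are uncertain. Ptgs2, the inducible cyclooxygenase highly expressed in that duct, followed the same libraries, at 2.67 and 3.51 CPM and 3070, 3.16 and 1002 CPM, as did Serpina1f, at 1.05 and 1.45 CPM and 1044, 1.47 and 276 CPM, and the transporter Abcg2, at 3.93 and 3.56 CPM and 1333, 13 and 427 CPM. Chlordecone 2 lay near the controls for Ptgs2 and Serpina1f. The list of 12 genes tested had a median of 1.83. It was 6.57 without control 1, 3.03 without control 2, 3.54 without chlordecone 2 and 1.02 without chlordecone 3. Several epididymal genes stayed low in all libraries, such as Lcn5 at 0.629 and 0 CPM and 1.27, 0 and 0.0921 CPM and Gpx5 at 0.210 and 0 CPM and 0.317, 0.927 and 3.82 CPM, and of 16 list genes in the table, 8 were at 0 counts in control 2 and 0 in chlordecone 1. The part that tissue carried over from neighbouring organs has in any result here was not tested. With the genes of the seminal vesicle and vas deferens lists left out of the totals and the scaling, a step chosen after seeing the data, 5 genes were called, 2 higher and 3 lower, and all 5 were the same genes.

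**Figure D4:**
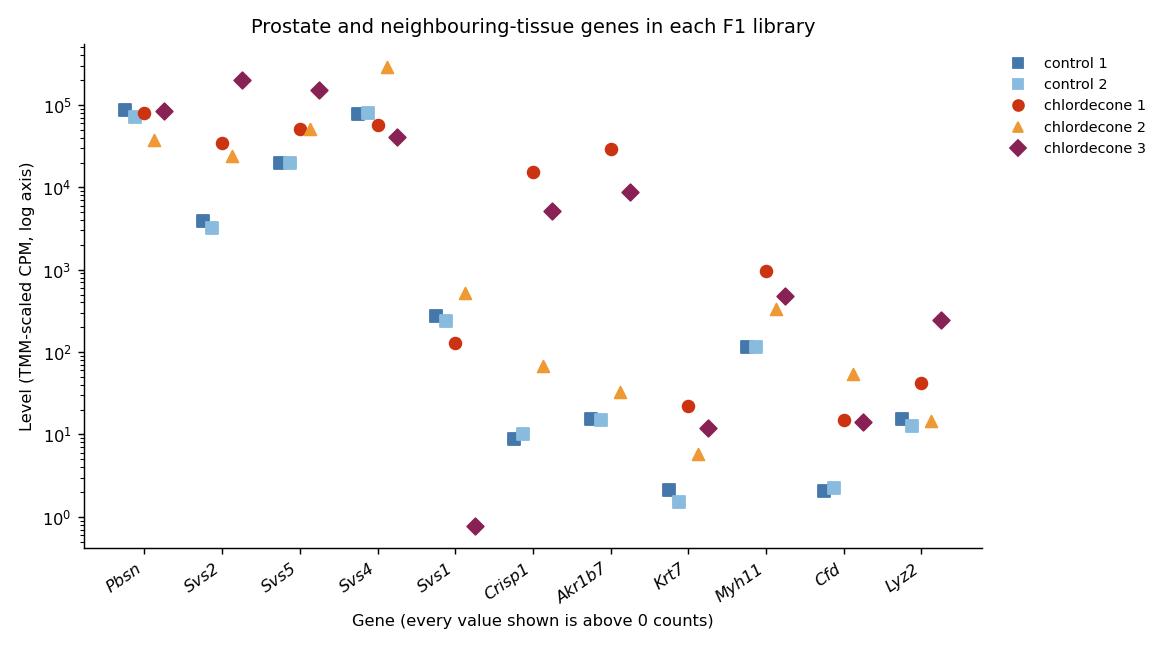
Level of 11 genes of the prostate, seminal vesicle, vas deferens, bladder lining, smooth muscle, fat and macrophages in each F1 library, in TMM-scaled CPM on a log axis. Squares are the 2 controls and the other symbols the 3 chlordecone libraries. Crisp1 and Akr1b7 are high in chlordecone 1 and 3, Svs4 and Cfd are highest in chlordecone 2, and Svs1 is near 1 CPM in chlordecone 3 alone.

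Urothelium, the lining of the bladder and urethra, had a median of 1.57 over 13 genes tested, with 2.47, 0.65 and 1.25 in chlordecone 1, 2 and 3, and of 0.54 without chlordecone 1. Krt7, a keratin of that lining, had 2.1 and 1.5 CPM and 22.0, 5.73 and 12.1 CPM, and the uroplakin Upk1a had 1.73 and 0.656 CPM and 13, 2.51 and 13.2 CPM. Gata3, a transcription factor of urothelium that is also made by prostate epithelium, lay below both controls, at 3163 and 3212 CPM and 1276, 1705 and 1629 CPM. Adipocyte genes had a median of 1.28 over 16, highest in chlordecone 2 (0.73, 1.98 and 0.86), and of 0.56 without it. Cfd, the fat-cell complement factor D, had 2.04 and 2.25 CPM and 14.9, 53.5 and 14.1 CPM, Fabp4, the fatty acid carrier, had 15.2 and 15.6 CPM and 54.9, 184 and 41.6 CPM, and Cidec, a lipid droplet protein, had 0.524 and 0.656 CPM and 8.12, 24.0 and 4.74 CPM. The median of 21 nerve genes was likewise highest in chlordecone 2 (0.73, 1.45 and 0.92). Some members were highest in chlordecone 3 instead: Tubb3, the neuronal tubulin, had 1.15 and 0.187 CPM and 6.06, 14.6 and 18.7 CPM, and Prph, a neuronal filament protein, had 1.10 and 0.890 CPM and 2.77, 10.6 and 11.2 CPM. The potassium and sodium channels called above are genes of excitable cells, and the summed nerve level was 137 and 137 CPM in the controls and 219, 359 and 278 CPM in chlordecone 1, 2 and 3. Whether Kcna2 moved with nerve content was not tested.

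All 18 smooth muscle genes tested had a log2 fold change above 0, with a median of 1.06 and with 1.59, 0.52 and 0.89 in chlordecone 1, 2 and 3, and 16 lay above both controls in all 3 libraries, against 16.2% of all genes. With edgeR, 0 passed the adjusted threshold and 10 had an unadjusted p under 0.05, all higher. Myh11, the contractile myosin of smooth muscle, had 115 and 115 CPM in the controls and 955, 335 and 486 CPM in chlordecone 1, 2 and 3. Des, the filament protein desmin, had 399 and 417 CPM and 1280, 897 and 705 CPM. Smtn, smoothelin, a protein of contractile cells, had 15.7 and 16.6 CPM and 86.5, 58.5 and 51.8 CPM, and Mylk, the myosin light chain kinase, had 563 and 512 CPM and 1848, 1263 and 1072 CPM. Tagln and Tpm2 were the 2 that overlapped, Tagln being below both controls in chlordecone 2, Tagln at 2076 and 1995 CPM and 5228, 1566 and 3630 CPM and Tpm2 at 1239 and 1354 CPM and 2298, 1316 and 1790 CPM. In bulk tissue, more muscle cells and more RNA per muscle cell cannot be told apart, and the same holds for every cell type here. Fibroblast and matrix genes had a smaller median, 0.44 over 41 genes, with little spread between libraries (0.55, 0.29 and 0.47). The matrix proteoglycans Bgn, at 7.13 and 8.58 CPM and 48.9, 32.6 and 25.9 CPM, and Fmod, at 0.891 and 0.703 CPM and 4.55, 7.69 and 6.40 CPM, lay above both controls, as did the elastic fibre gene Eln, at 1.21 and 2.34 CPM and 6.97, 11.0 and 5.71 CPM. Dcn, another proteoglycan, overlapped between groups, at 710 and 576 CPM and 744, 524 and 817 CPM. Endothelium was the stromal list below 0, with a median of -0.41 over 20 genes: the tight junction gene Cldn5 had 14.6 and 13.7 CPM and 6.49, 7.03 and 5.71 CPM, and Emcn, a mucin-like surface protein of vessels, had 31.5 and 26.9 CPM and 20.5, 15.8 and 14.4 CPM.

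The medians of macrophage, interferon and antigen presentation genes were highest in chlordecone 3. The macrophage list had a median of 0.75 over 19 genes and 0.74, 0.10 and 1.78 in chlordecone 1, 2 and 3. Lyz2, lysozyme of macrophages and neutrophils, had 14 ± 2.15 CPM in the controls (SD, n = 2) and 42.4, 14.6 and 246 CPM in chlordecone 1, 2 and 3. Its level in chlordecone 2 was within the range of the controls. Interferon-response genes had 0.82, 0.14 and 1.36 over 24 genes, 15 of them at least 2-fold higher in chlordecone 3 and 5 in chlordecone 2. Isg15, the ubiquitin-like protein induced by interferon, had 0.629 and 1.36 CPM and 8.12, 1.42 and 17.0 CPM. Antigen presentation genes had 0.47, 0.03 and 0.73 over 19. Cd74, the class II invariant chain, had 2.31 and 2.86 CPM and 11.9, 9.22 and 18.7 CPM, and H2-T23 had 4.51 and 2.11 CPM and 68.6, 9.38 and 90.5 CPM. B2m overlapped between groups, at 1064 and 846 CPM and 1519, 863 and 1473 CPM. So did H2-D1, and Mrc1 and Ifih1 of the macrophage and interferon lists. Above both controls in all 3 libraries lay 6 macrophage, 10 interferon and 5 antigen presentation genes. Below both lay 1, 2 and 1, beside 16.2% above and 15.1% below over all genes. Without chlordecone 3 the interferon median was 0.42 and the macrophage median 0.36, each below its 0.73 and 0.75 over all 5 libraries.

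Complement split by gene. Over 28 genes the median was 1.0, with 0.93, 0.39 and 1.09 by library, and 11 lay above and 7 below both controls in all 3. Clu, the chaperone clusterin that also restrains complement, had 4.03 and 4.22 CPM in the controls and 304, 94.5 and 872 CPM in chlordecone 1, 2 and 3 (adjusted p = 0.111, edgeR). C1s1, the protease of the first component, had 7.07 and 6.89 CPM and 21.8, 12.7 and 21.5 CPM. Its close relative C1s2 had 1524 and 1380 CPM and 891, 955 and 1051 CPM, and Cd59a, which blocks the membrane attack complex, had 3678 and 2979 CPM and 324, 1075 and 1419 CPM, below both controls in all 3. C1rl was the member that fell past the threshold, with the values given above.

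Hormone-responsive genes had medians near 0 over the group, though not in every library. Oestrogen-responsive genes had 0.11 over 23, with 0.25, -0.16 and 0.71 by library, and androgen-responsive genes 0.10 over 23, with 0.06, -0.19 and 0.06. With upper-quartile scaling the medians were -0.05 for both, under a shift of the median of all genes from 0.02 to -0.12. Single members differed in both directions. Esr1, the oestrogen receptor alpha, had 44.2 and 32.9 CPM and then 20.9, 20.2 and 23.2 CPM. Its transcriptional targets Pgr, the progesterone receptor, at 8.49 and 10.1 CPM and 3.92, 4.85 and 2.62 CPM, and Greb1, at 102 and 85.6 CPM and 30.6, 54.5 and 37.2 CPM, were below both controls in all 3 exposed libraries as well. Ccnd1, cyclin D1, another target, lay above, at 25.5 and 29.4 CPM and 131, 67.8 and 143 CPM, and so did Wnt4, at 4.77 and 3.84 CPM and 10.8, 12.4 and 14 CPM, and the iron-binding protein Ltf, at 0.262 and 0 CPM and 5.31, 0.763 and 10.4 CPM. None of these oestrogen-responsive genes passed the adjusted threshold (lowest 0.152, for Ccnd1, edgeR). Of the 23 in the list, 4 lay above both controls in all 3 libraries and 7 below, beside 16.2% and 15.1% of all genes. With edgeR, 4 had an unadjusted p under 0.05 on the higher side and 3 on the lower, beside 7.93% and 3.6% of all genes.

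Of the androgen-responsive genes, Fkbp5, a co-chaperone of steroid receptors, had 14.6 and 10.2 CPM and 42.5, 28.1 and 60.7 CPM, Lifr, a cytokine receptor, had 9.33 and 10.4 CPM and 32.3, 20.3 and 48.9 CPM, and Homer2, a scaffold protein, had 1.21 and 1.41 CPM and 5.03, 6.27 and 5.89 CPM, each with every exposed library above both controls. Slc45a3, the transporter also called prostein, had 26.7 and 21.2 CPM and 13.5, 10.5 and 12.8 CPM, below both controls. Of the 23 androgen-responsive genes, 6 lay above both controls in all 3 libraries and 9 below, beside 16.2% and 15.1% of all genes. With edgeR, 4 had an unadjusted p under 0.05 on the higher side and 3 on the lower, beside 7.93% and 3.6% of all genes. Over the 33 receptors and coregulators the median was 0.04, with 0.17, 0.08 and 0.16 by library. Thra, a thyroid hormone receptor, had 7.54 and 11.2 CPM and 37.2, 26.0 and 21.1 CPM, and Nr2f1, an orphan receptor of stromal cells, had 10.4 and 8.95 CPM and 19.9, 34.1 and 18.5 CPM.

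Xenobiotic metabolism, the enzymes that oxidise and conjugate foreign chemicals, had a median of 1.53 over 33 genes tested, with 1.82, 0.48 and 1.92 in chlordecone 1, 2 and 3. Of the 33, 15 lay above both controls in all 3 libraries and 2 below, and 10 were at least 2-fold higher in all 3, beside 4.95% of all genes. With edgeR, 0 passed the adjusted threshold and 16 had an unadjusted p under 0.05 on the higher side, with 1 on the lower. The members above the controls included glutathione transferases, which attach glutathione to foreign molecules. Gsta3 had 5.19 and 3.19 CPM in the controls and 30.1, 12.5 and 37.1 CPM in chlordecone 1, 2 and 3, Gstm5 had 12.7 and 10.8 CPM and 42.7, 40.3 and 104 CPM, and Gstm2 had 24.6 and 28.9 CPM and 213, 36.7 and 172 CPM. Cyp2e1, an oxidase of ethanol and small solvents that fat and liver express, had 0.681 and 0.937 CPM and 7.88, 32.0 and 4.14 CPM, highest in chlordecone 2 like the fat genes. Cyp1a1, a classical target of the aryl hydrocarbon receptor, had 0.314 and 0.0937 CPM and 2.53, 1.96 and 4.60 CPM, above both controls in all 3. The sensors themselves and 2 other targets overlapped between groups: Ahr had 16.7 and 13.4 CPM and 14.6, 15 and 16.9 CPM, Cyp1b1 had 13.7 and 16.4 CPM and 21, 13.7 and 14.1 CPM, Nqo1 had 4.82 and 4.64 CPM and 10.7, 2.67 and 4 CPM, and Nfe2l2 had 36.8 and 24.8 CPM and 67.2, 27.2 and 63.9 CPM. Akr1b7 and Crisp1 were also highest in chlordecone 1 and 3, as most of the transferases were, and their part in these values was not tested.

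Developmental regulators divided by Hox cluster. Hox proteins set position along the body and its ducts, and the genes within a cluster lie side by side. Cluster D had a median of 1.84 over 8 genes, with 2.01, 1.40 and 2.03 by library, and 6 of the 8 lay above both controls in all 3. Hoxd9 had 3.72 and 5.25 CPM in the controls and 18.6, 14.4 and 19.3 CPM in chlordecone 1, 2 and 3, Hoxd8 had 5.08 and 5.90 CPM and 57.4, 14.2 and 37.7 CPM, and Hoxd4 had 2.88 and 1.87 CPM and 13.3, 6.43 and 11.6 CPM. Of the posterior members, Hoxd10 and Hoxd11 were also above both controls in all 3, Hoxd12 was below, and Hoxd13, which patterns the lower tract, overlapped at 14.9 and 18.0 CPM and 25.8, 23.2 and 10.9 CPM. Cluster B had a median of 1.19 over 10 genes, with 1.30, 1.04 and 1.58 by library. Hoxb6 had 4.98 and 6.75 CPM and 58.8, 12.4 and 47.3 CPM, Hoxb7 had 5.97 and 3.84 CPM and 70.6, 9.65 and 56.5 CPM, and Hoxb8 had 0.105 and 0.375 CPM and 30.8, 1.74 and 17.0 CPM. Each was highest in chlordecone 1 and lowest of the exposed libraries in chlordecone 2. Hoxb13, at the posterior end, was lower in all 3. Cluster A had a median of -0.07 over 10 genes and -1.14, 0.49 and -0.10 by library, with Hoxa10 at 53.4 and 39.3 CPM and 52.3, 39.0 and 43.8 CPM. Cluster C had 0.28 over 6 genes, none of which lay beyond both controls in all 3, and it turned to -0.35 without control 1. With edgeR, 0 Hox genes passed the adjusted threshold, and 6 of 8 in cluster D and 5 of 10 in cluster B had an unadjusted p under 0.05 on the higher side.

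Genes of prostate and duct development had a median of 0.18 over 48, with 0.18, 0.33 and -0.25 by library. Sox9, a regulator of prostate buds, had 62.8 and 57.3 CPM and 22.8, 34.2 and 28.9 CPM, below the controls in all 3. Emx2, a homeobox gene of the urogenital ducts, had 1.21 and 5.81 CPM and 43.0, 5.67 and 36.6 CPM, apart from the controls in chlordecone 1 and 3 but not in 2. Writers and erasers of DNA and histone methylation had small values, with a median of 0.11 over 59 genes and 0.11, 0.10 and -0.01 by library. Kmt2d, a histone methyltransferase, had 8.02 and 10 CPM and 18.3, 22.6 and 17.9 CPM, and Nsd1, another, had 12.2 and 12.7 CPM and 22.8, 21.9 and 21.1 CPM. Ehmt1 lay below both controls in all 3, at 188 and 127 CPM and 85.4, 98.3 and 77.1 CPM. So did Kdm5a, at 147 and 130 CPM and 97.9, 117 and 83.2 CPM. Of the 59, 14 lay above both controls in all 3 libraries and 11 below, beside 16.2% and 15.1% of all genes. Imprinted genes had a median of 0.27 over 37, of which 8 were at least 2-fold higher in all 3 libraries and 2 at least 2-fold lower. Kcnq1 had 0.891 and 1.83 CPM and 14.7, 2.62 and 12.8 CPM, Meg3 had 2.31 and 1.78 CPM and 5.11, 14.2 and 4.83 CPM, and Ube3a had 329 and 270 CPM and 178, 187 and 168 CPM. None of the imprinted genes passed the adjusted threshold with edgeR, and 7 had an unadjusted p under 0.05 on the higher side and 2 on the lower.

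Ribosomal and respiratory chain genes had lower medians in chlordecone 2 than in the other exposed libraries. Ribosomal protein genes had a median of -0.19 over 78 genes, made of 0.02, -0.81 and 0.00 in chlordecone 1, 2 and 3, and without chlordecone 2 it was 0.03. In chlordecone 2, 23 of the 78 were at least 2-fold lower, against 0 in chlordecone 1 and 1 in chlordecone 3. Smaller differences were shared: 25 of the 78 lay below both controls in all 3 libraries and 1 above, beside 15.1% and 16.2% of all genes. Nuclear-encoded subunits of oxidative phosphorylation had 0.42, -0.67 and 0.36 over 77 genes, and 0 had an unadjusted p under 0.05 in either direction (edgeR). Rps12 had 2130 and 2278 CPM and 1275, 1042 and 1256 CPM, below both controls in all 3. Glycolysis genes had a median of 0.52 over 30: Slc16a3, the lactate exporter, had 0.996 and 1.03 CPM and 11.2, 4.04 and 9.85 CPM, and Hk2, hexokinase, had 3.88 and 3.80 CPM and 22.4, 10.7 and 6.95 CPM. Ldha, lactate dehydrogenase, overlapped between groups at 296 and 305 CPM and 338, 142 and 284 CPM. Cell cycle genes had -0.18 over 35, with 0 at an unadjusted p under 0.05 in either direction and -0.64, 0.10 and -0.30 by library.

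The 78 potassium channels had a median of 0.10 and the 50 sodium and calcium channels 0.04, and each had 1 member past the threshold. Larger fold changes that varied more between libraries did not pass, such as that of Kcnj16, an inward rectifier, at 0.419 and 1.22 CPM and 186, 1.80 and 64.6 CPM. By library the medians were -0.31, 0.52 and -0.19 for potassium channels, and -0.39, 0.62 and -0.21 for the others. Kcnma1, the large-conductance calcium-activated channel, had 125 and 134 CPM and 43.2, 55.9 and 58.6 CPM, and Trpv6, a calcium channel of secretory epithelium, had 1.26 and 3.19 CPM and 37.3, 11.4 and 68.6 CPM. Trpm3, a calcium-permeable channel, had 29.9 and 24.2 CPM and 3.60, 11.1 and 5.85 CPM, and with Trpc6 above it lay below both controls in all 3. Among junction genes Cldn1 had 13.5 and 13 CPM and 35.4, 36.5 and 65.5 CPM, and Cldn8, a claudin of ducts, had 655 and 610 CPM and 353, 278 and 447 CPM. Ceruloplasmin, the copper oxidase that loads iron on transferrin, is encoded by Cp and had 6.44 and 3.94 CPM and 23.4, 32.5 and 18.6 CPM, the same direction as Trf, while the ferritin chain Fth1 had 1281 and 1311 CPM and 1297, 787 and 1462 CPM.

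**Figure D5:**
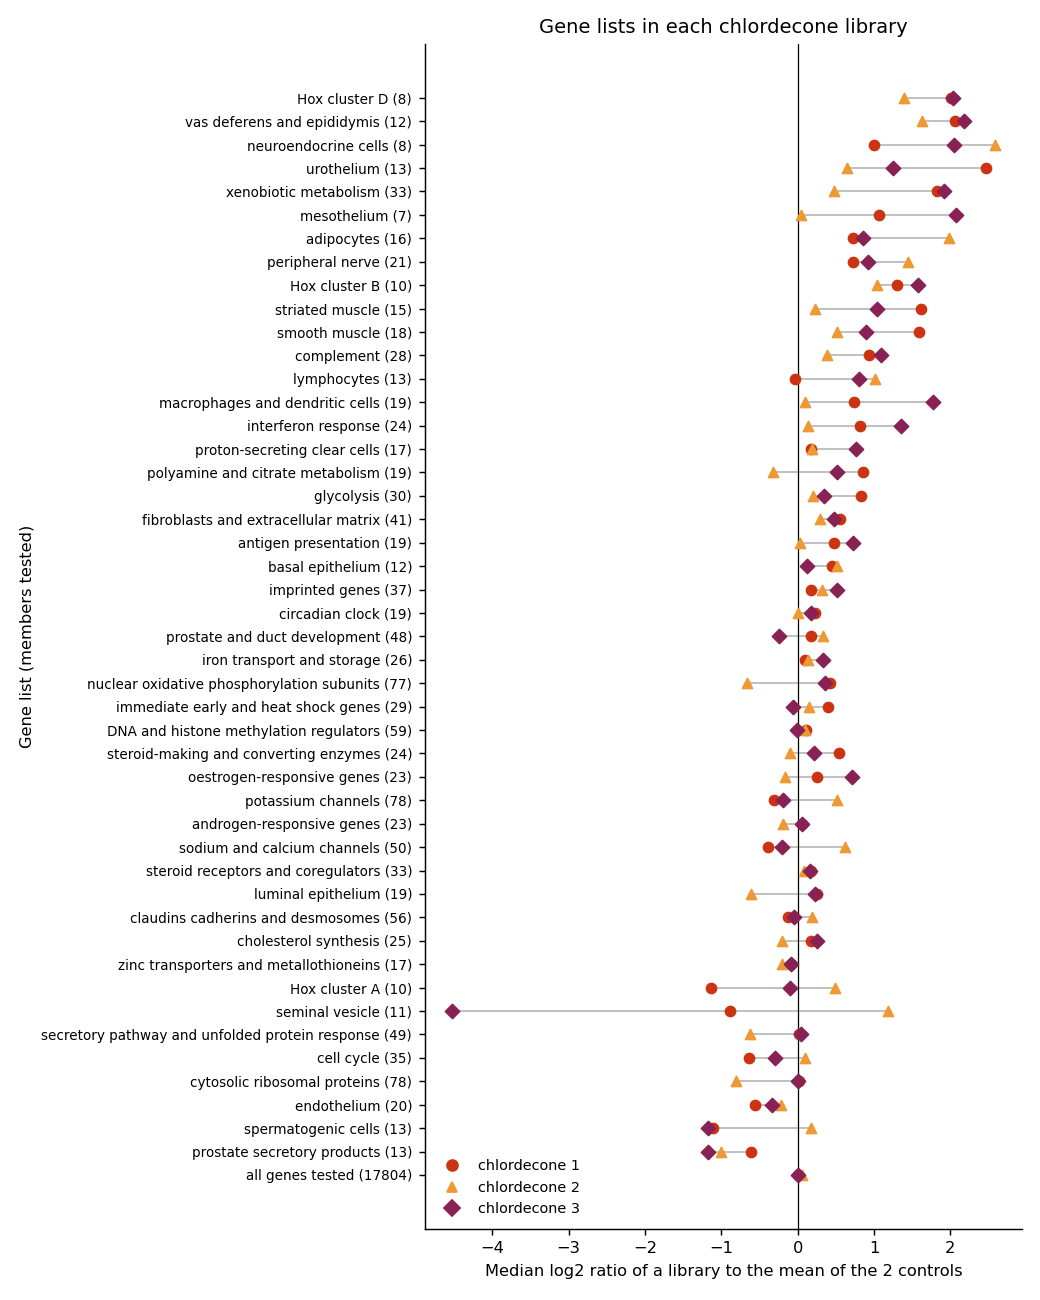
Median log2 ratio to the mean of the 2 controls of 46 gene lists with at least 7 members tested, in each chlordecone library, ordered by the median fold change, with all 17804 genes at the bottom. Numbers after a name are members tested and lines join the lowest and highest library. Hox clusters B and D and vas deferens lie above 1 in all 3 libraries, seminal vesicle spans from -4.53 to 1.19, and for oxidative phosphorylation chlordecone 2 alone lies below 0.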

How the data were processed

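Prostate RNA of F1 mice was sequenced, and 5 libraries were analysed: F1 control 1 and 2 (columns headed C) and F1 chlordecone 1, 2 and 3 (columns headed K, for kepone). No column was left unmapped (0 columns). The authors deposited raw read counts per Ensembl gene. Per the submitters' processing notes, which give no order, HTSeq 0.6.1 and TopHat2 2.0.14 were among the tools, as were DESeq2 1.6.3, Bowtie2 2.1.0 and bcl2fastq 2.17.1.14. The build was mm10. Which annotation release was counted, and with which strand setting, is not given in the sources used here. Overlapping genes are therefore uncertain. Overlaps were looked up for 42 of the genes named, and not for the other list members. The F1 table held 19091 genes, none mitochondrial (0), with a lowest total of 20 counts per gene. A table made this way cannot show genes below that total.

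The filterByExpr filter (counts of 10, totals of 15) chose the genes, which were scaled by TMM and tested with edgeR 4.0.16 in R 4.3.3 (quasi-likelihood F test, two-sided, no covariate). The threshold was a Benjamini-Hochberg adjusted p of 0.05. The log2 ratio of a library used log2 CPM with a prior count of 2. Lists have no test: they are described by counts and medians beside all genes. The genes, the 48 lists and the comparisons were chosen with earlier results of these data known. Genes are named as follows: all past the threshold; the 12 with the smallest p in each direction beyond them whose mean is 1 CPM or more, whose groups do not overlap and which are not numbered gene models; up to 4 of each list with the smallest p and 2 with the highest level; the most even, the most uneven and the most abundant genes. Tgm4, Cldn3, Chga, Lcn5, Gpx5, Pgr, Hoxd10, Hoxd11, Hoxd12, Ahr, Cyp1a1, Cyp1b1, Nqo1 and Nfe2l2 fall outside this rule and were chosen after their values were seen. Some genes that met the rule are not described in the results, among them Slpi, Gpr82, Xlr3b and Zfp982.

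The test was tried on simulated counts and recovered the sign of the changes made. The sign alone does not tell how many changed genes a comparison of this size would call. Alternatives were DESeq2 size factors, upper-quartile factors, the Wald test of DESeq2 1.42.0, a minimum mean of 1 CPM, no filter, the replicate number as a block, leaving out each library, and, added later, leaving neighbouring-tissue genes out of the totals. Gene positions were taken from GENCODE M21 (GRCm38) for the 19082 genes found there by Ensembl identifier. The deposited coordinates had the same start and end for 2.11% of these and the same span for 98.2%. Promoter sequences are from RefSeq, and 3 of the 5 called genes had one. Figures were drawn with matplotlib from the values given.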

Additional observations from a re-analysis of the deposited data

How the results depend on the processing

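The count of genes past the threshold was the least stable result. It was 5 (2 higher, 3 lower) with edgeR and 5 with DESeq2 size factors, with a mean of at least 1 CPM and, added after seeing the data, without the neighbouring-tissue genes. It was 14 with upper-quartile factors (4 higher, 10 lower), 21 with no filter (11 and 10) and 700 with the DESeq2 Wald test (537 and 163). The same 5 genes were among the calls of all of these. Leaving out 1 library gave 0 to 2604 calls, the lowest being 0 without control 1, control 2 or chlordecone 3, and the highest 2604 without chlordecone 2 (1671 higher, 933 lower). The cause was not tested. With the replicate number as a block, 322 genes were called (296 higher, 26 lower), all 5 among them. Chlordecone 3 has no control of the same number in that fit, so it did not inform the change between groups there. The labels give no source for shared numbers, and deviations from the group means correlated at r = 0.0599 for the libraries numbered 1 and 0.0655 for those numbered 2, so the block is no evidence of a pairing. Genes whose groups did not overlap numbered 5570, and 5061 to 5821 over other scalings and filters, but 6534 to 11237 without 1 library, where fewer libraries have to be ordered. Of 348 values of the 29 genes named for their p, 0 reversed direction, 16 lost the threshold and 96 gained it. These genes were picked for a small p in the same libraries, so the lack of reversals was largely set by that choice. Of 622 values of list medians, 574 stayed within 1 SD of the libraries and 35 changed sign, 9 of the lists under upper-quartile factors. Those that changed sign had lain within 0.3 of 0. The SD is that of each list's own 3 library medians, so uneven lists stayed within it most easily. The seminal vesicle median counts as within it at -1.77 without chlordecone 2, beside -0.07 with all libraries. Leaving out 1 library moved other list medians by over 1.5 times: without chlordecone 1 the median was 0.65 for smooth muscle (1.06 with all libraries) and 0.33 for glycolysis (0.52), without chlordecone 3 it was 0.57 for complement (1.0) and 0.19 for antigen presentation (0.43), and without control 1 it was 0.77 for peripheral nerve (1.24). Depth limits the rarest genes, since those under 20 counts in all are not in the table.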
